A study of Homo sapiens with 9 samples.

Results

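Expression of 8 chemokine ligand genes, CCL22, CCL17, CCL18, CCL3, CCL4, CCL5, CXCL10 and CXCL16, was followed in the human CLL (chronic lymphocytic leukemia) cell line MEC1 under 3 culture conditions. The genes were taken by symbol, 8 of the 59050 in the deposited count table, from a list drawn up with earlier results of these data known. RNA was sequenced from 3 samples of MEC1 cells in conventional 2D culture, 3 samples of cells bioprinted in 3D and harvested after 7 days (3D_7d), and 3 harvested after 14 days (3D_14d). For 3D culture, cells were printed inside CELLINK Bioink, a hydrogel of alginate and nanofibrillar cellulose. All groups were the same line, no drug or stimulus was named for any of them, and no other cell type was named. The sample titles carry the letters PGK, which the labels do not explain. RNA of the scaffolds was extracted with TRIzol, digested with DNase I and cleaned on a column. RNA of the 2D cells was extracted with the column kit alone, with a DNase solution among its steps. The extraction was therefore the same at both time points but differed between 2D and 3D, so that culture and extraction cannot be told apart in those comparisons. The labels give no time in culture for the 2D samples, so that time cannot be told apart from culture there either. The labels do not say whether the replicates came from separate cultures, and the p-values measure the spread between these samples, which may be technical. In RNA from whole cultures, fewer cells of a type and less RNA per cell cannot be told apart.

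Chemokines are small secreted proteins that attract leukocytes by binding G protein-coupled receptors on the target cell. In lymph nodes, leukemic B cells of CLL release CCL3 and CCL4 after stimulation of the B cell receptor, and CCL17 and CCL22 after contact with CD40 ligand on T cells, which attracts further T cells and monocytes. CCL22 and CCL17 are the ligands of CCR4, CCL3, CCL4 and CCL5 are inflammatory chemokines made by many activated leukocytes, CXCL10 binds CXCR3 and CXCL16 binds CXCR6, while CCL18 is best known as a product of macrophages and dendritic cells.

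The reads assigned to genes numbered 54662799 in the shallowest sample and 85968686 in the deepest. Counts were expressed as CPM, the counts relative to library size after scaling of the libraries with TMM (trimmed mean of M-values) factors, and as RPKM, which also divides by the exonic length in kilobases. Differences were tested with the quasi-likelihood test of edgeR in 1 fit over all 9 samples, and a gene was called when its p-value, adjusted with the Benjamini-Hochberg method over all 13463 genes tested, was at most 0.05. Genes were tested when their CPM exceeded 1 in at least 3 samples, which 7 of the 8 ligand genes did, CCL17 being the exception. Over all tested genes the median difference was -0.0039 at day 7 and 0.023 at day 14 against 2D and -0.0012 between the time points, on the log2 scale. With 3 against 3 samples, exact permutation cannot reach a p-value under 0.1 and was not used.

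The cells carried the transcripts of B cells. Of 8 markers of B cells, 7 were tested, their summed level was between 3230 and 5063 CPM in every sample, and the exception was CD5, with at most 62 counts in a sample. None of 13 markers of monocytes, macrophages and dendritic cells passed the expression filter. Their summed level was 0.853 to 1.55 CPM in 2D, 1.76 to 2.07 CPM at day 7 and 0.645 to 1.42 CPM at day 14, and LYZ, FCGR1A, S100A8 and CLEC10A had at most 3 counts in every sample, while CD14 had 0 to 40. Of 12 markers of T and NK cells, 4 were tested, and the summed level of the list was 325 to 373 CPM in 2D, 579.0 to 600.4 CPM at day 7 and 781 to 1130 CPM at day 14. TRAC and GNLY, a granule protein of cytotoxic lymphocytes, made up most of it, with GNLY at 13.3 ± 1.59, 113 ± 21.2 and 288 ± 105 CPM (mean ± SD, n = 3). KLRD1, a receptor of NK cells, averaged 0.551 ± 0.279, 2.30 ± 0.182 and 4.69 ± 1.15 CPM in the 3 groups and rose (log2 fold change 3.07 at day 14, adjusted p = 0.000131 by edgeR). NKG7 fell at day 7 (-1.96, adjusted p = 0.0317 by edgeR). KLRD1 passed the expression filter only through samples of 3D, which favoured a rise. NKG7 passed it only with the help of its samples of 2D, which favoured a fall. Of the T cell genes, CD3D, CD3G and CD8B had at most 3 counts in every sample, CD3E had 44, 93 and 43 counts in 2D and 10 to 47 in 3D, and CD8A had at most 25. The 7 stromal markers, of which 3 were tested, summed to 23.5 to 27.2, 38.1 to 55.1 and 53.6 to 80.0 CPM, most of it PECAM1. Of the 3 tested, only PECAM1 was called higher than in 2D, averaging 13.8, 42.25 and 64.28 CPM in the 3 groups. From 2D to day 7, PDGFRB fell from 3.672 to 0.4581 CPM on average (adjusted p = 0.000339 by edgeR). COL1A1 fell from 6.934 to 3.003 CPM (adjusted p = 0.0334 by edgeR). PDGFRB, unlike COL1A1, passed the expression filter only with the help of its samples of 2D, so that its fall was favoured. At day 14 PDGFRB averaged 2.11 CPM and COL1A1 3.195 CPM, and neither was called against 2D.

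Promoter sequences of CCL22, CCL18, CCL3 and CXCL10 are shown because these genes followed 4 different courses over the 3 groups. They were taken from RefSeq on build GRCh38.p14 and comprise the 250 bases before the start of the transcript, written 5′ to 3′ on the strand of the gene. CCL17, CCL4, CCL5 and CXCL16 had no entry. The CCL22 stretch is chr16:57358533-57358782 on the plus strand, that of CCL18 is chr17:36064022-36064271 on the plus strand, that of CCL3 is chr17:36090144-36090393 on the minus strand and that of CXCL10 is chr4:76023498-76023747 on the minus strand. Capitals mark the matches to the motifs described after the sequences.
CCL22: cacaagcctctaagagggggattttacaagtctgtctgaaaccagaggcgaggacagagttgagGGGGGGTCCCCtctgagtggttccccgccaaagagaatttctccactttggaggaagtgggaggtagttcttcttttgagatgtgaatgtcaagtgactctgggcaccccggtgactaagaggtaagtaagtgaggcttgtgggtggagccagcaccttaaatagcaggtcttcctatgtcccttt
CCL18: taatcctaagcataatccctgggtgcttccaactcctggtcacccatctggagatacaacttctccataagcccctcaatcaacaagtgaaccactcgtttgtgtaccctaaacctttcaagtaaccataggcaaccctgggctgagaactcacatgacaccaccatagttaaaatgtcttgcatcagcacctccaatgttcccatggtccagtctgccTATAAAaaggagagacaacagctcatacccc
CCL3: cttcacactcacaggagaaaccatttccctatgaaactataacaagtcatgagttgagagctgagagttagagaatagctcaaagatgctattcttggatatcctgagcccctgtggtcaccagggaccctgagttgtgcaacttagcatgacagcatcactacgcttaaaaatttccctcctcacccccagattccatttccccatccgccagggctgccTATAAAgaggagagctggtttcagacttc
CXCL10: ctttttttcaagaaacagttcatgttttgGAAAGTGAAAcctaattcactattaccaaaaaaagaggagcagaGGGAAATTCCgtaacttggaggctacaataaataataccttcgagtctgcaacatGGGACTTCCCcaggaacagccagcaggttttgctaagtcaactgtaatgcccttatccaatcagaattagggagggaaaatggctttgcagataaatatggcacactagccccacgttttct

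Both strands were searched for the kappaB motif bound by NF-kB, the interferon-stimulated response element, a STAT element, an AP-1 site (TGANTCA) and the TATA box (TATAAA). In CCL22, the capitals span positions -186 to -176 from the start site and hold 2 overlapping kappaB matches. CXCL10 held kappaB matches at -177 to -168 and at -122 to -113 and an interferon-stimulated response element at -221 to -212. CCL18 and CCL3 held no such match but a TATA box, at -31 to -26 and at -29 to -24 respectively. Among all 35116 promoter entries of this length, 9.96% held a kappaB match, 3.02% an interferon-stimulated response element, 5.38% a STAT element, 6.57% an AP-1 site and 10.7% a TATA box. The matches describe the letters of these windows and do not show that a factor bound there.

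**Figure D1:**
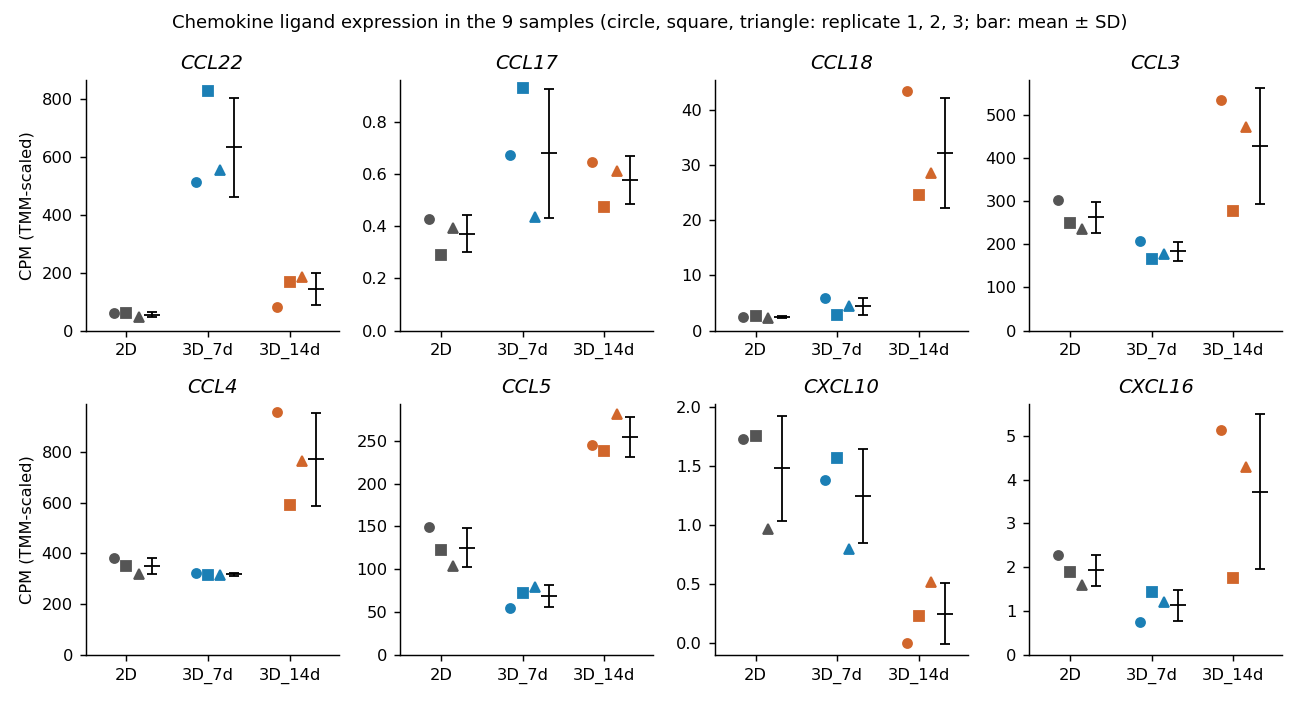
CPM of the 8 ligand genes in each of the 9 samples, with the 3 culture groups on the x axis, a separate y axis for each gene, a symbol for each replicate and the mean ± SD (n = 3) beside each group. CCL22 is highest in the 3 samples of day 7, from 513 to 826 CPM, whereas CCL18, CCL4 and CCL5 are highest in the 3 samples of day 14 and CXCL10 is lowest there.

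CCL22 rose from 2D to day 7 of 3D culture and then fell by day 14 to a level that remained above 2D. CCL22 (chr16:57358783-57366189, plus strand, GRCh38) encodes the macrophage-derived chemokine that attracts T cells bearing CCR4, regulatory T cells among them. It was at 59.75, 59.96 and 45.96 CPM in the 3 samples of 2D, at 513, 826 and 555 CPM in those of day 7, and at 80.4, 166 and 184 CPM in those of day 14. No sample of a group reached into the range of another, although replicate 1 of day 14 stood close to 2D. At day 7 the gene was 11.4-fold higher than in 2D, a log2 fold change of 3.51 (SE 0.299, 95% interval 2.87 to 4.16, adjusted p = 6.76e-06 by edgeR). At day 14 it was 2.6-fold higher than in 2D (log2 fold change 1.38, SE 0.276, 95% interval 0.78 to 1.98, adjusted p = 0.00222 by edgeR). The fall from day 7 to day 14 was 4.39-fold (log2 fold change -2.14, SE 0.282, 95% interval -2.75 to -1.52, adjusted p = 0.000372 by edgeR). Because the study named CCL22 on these samples, these tests are not independent evidence of its direction. The summed level of the 13 myeloid markers was also highest at day 7, at 1.76 to 2.07 CPM, with LYZ, FCGR1A, S100A8 and CLEC10A at no more than 3 counts in any sample. VSIG4, a macrophage receptor of this list, had 1, 2 and 0 counts in 2D, 19, 34 and 23 at day 7 and 18, 18 and 7 at day 14. Its samples of 3D thus all lay above those of 2D, as for CCL22. Other markers of the list went the other way, such as S100A9, with 12, 13 and 2 counts in 2D and 0, 0 and 1 at day 7. CD1C had 38, 31 and 23 counts in 2D, 8, 11 and 27 at day 7 and 8, 0 and 2 at day 14. The part of such cells in the result was not tested. None of the exonic bases of CCL22 were shared with another annotated gene, and the 3 calls were made in each of the alternative fits run.

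CCL17 (chr16:57404767-57416062, plus strand), which encodes the other ligand of CCR4 and starts 45984 bases from the start of CCL22, had few counts in every sample. It had 26, 27 and 30 counts in 2D, 39, 51 and 23 counts at day 7 and 35, 25 and 34 counts at day 14. In CPM these were 0.371 ± 0.0713, 0.679 ± 0.246 and 0.577 ± 0.0908 (mean ± SD, n = 3). Every sample of 3D lay above the highest of 2D, the lowest of day 7 by 0.436 against 0.428 CPM, whereas the ranges of the time points overlapped. In a fit without the expression filter, its difference from 2D was 0.88 on the log2 scale at day 7 (adjusted p = 0.595 by edgeR) and 0.58 at day 14 (adjusted p = 0.726), with SEs of 0.699 each, and neither was called. Per length, CCL22 stood at 216 ± 58.2 RPKM at day 7 and CCL17 at 1.10 ± 0.3975 RPKM (mean ± SD, n = 3).

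CCL18 rose late. The gene (chr17:36064280-36072032, plus strand) encodes a chemokine that attracts lymphocytes. It was at 2.42, 2.59 and 2.24 CPM in 2D, at 5.92, 2.84 and 4.40 CPM at day 7 and at 43.4, 24.5 and 28.5 CPM at day 14. The 3 groups did not overlap, but the lowest sample of day 7 stood close to 2D, while the samples of day 14 stood far above all others. At day 14 CCL18 was 13.3-fold higher than in 2D (log2 fold change 3.73, SE 0.302, adjusted p = 8.44e-06 by edgeR) and 7.31-fold higher than at day 7 (2.87, SE 0.290, adjusted p = 9.41e-05 by edgeR). The difference between day 7 and 2D was 1.81-fold (0.86, SE 0.281, adjusted p = 0.0257 by edgeR). This last call was lost without any 1 of the 2D replicates, with values of 0.81, 0.86 and 0.75, without replicate 1 of day 7 (0.56) or without its replicate 3 (0.81), and with total counts as the scaling (0.71). Of the 13 myeloid markers, none was tested in these samples, and at day 14, where CCL18 was highest, their summed level was 0.645 to 1.42 CPM.

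CCL3, CCL4 and CCL5, inflammatory chemokines of the CC family, were all higher at day 14 than in 2D and than at day 7. At day 7 against 2D they differed: CCL5 fell, while CCL3 and CCL4 were not called, and CCL4 was called higher once a trend with gene length was removed. They lie together on chromosome 17, with CCL5 at chr17:35871491-35880793 (minus strand), CCL3 at chr17:36088256-36090143 (minus strand) and CCL4 at chr17:36103827-36105621 (plus strand), and CCL18 lies between CCL5 and CCL3. CCL5, or RANTES, attracts T cells and monocytes. It was at 149, 123 and 104 CPM in 2D, at 54.8, 72.0 and 79.0 CPM at day 7 and at 244.5, 238 and 281 CPM at day 14, without overlap between the groups. CCL5 fell by 0.87 on the log2 scale at day 7 (SE 0.175, adjusted p = 0.0017 by edgeR) and rose by 1.03 at day 14 (SE 0.175, adjusted p = 0.000799 by edgeR), both against 2D. Between the time points it rose 3.71-fold (log2 fold change 1.89, SE 0.179, adjusted p = 8.68e-05 by edgeR). T and NK cells also make these ligands, and the summed level of their 12 markers was likewise highest at day 14, at 781 to 1130 CPM. TRAC and GNLY made up most of that sum, and TRAC already averaged 332 CPM in 2D. The markers GNLY and KLRD1 were higher at day 14 than in 2D, by 4.43 and 3.07 on the log2 scale. KLRD1 passed the expression filter only through samples of 3D, so that its rise was favoured. NKG7 was lower at day 7 (-1.96) and not called at day 14 (-0.62), both against 2D. CD3D, CD3G and CD8B had no more than 3 counts in a sample, and CD3E had 44, 93 and 43 in 2D and 13, 26 and 47 at day 14. The part of such cells in the result was not tested.

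CCL4, or MIP-1 beta, was the most abundant of the 8 ligands per length in each group. It was at 382, 351 and 317 CPM in 2D, at 324, 313 and 316 CPM at day 7 and at 956, 589 and 764 CPM at day 14. The samples of 2D and day 7 overlapped, and each sample of day 14 lay above all of them. CCL4 was 2.20-fold higher at day 14 than in 2D (log2 fold change 1.14, SE 0.171, adjusted p = 0.000345 by edgeR) and 2.42-fold higher than at day 7 (1.28, SE 0.171, adjusted p = 0.000411 by edgeR). Its log2 fold change at day 7 was -0.14 (95% interval -0.50 to 0.23, adjusted p = 0.531 by edgeR).

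CCL3, or MIP-1 alpha, attracts monocytes and T cells. It was at 302, 250 and 234 CPM in 2D, at 207, 166 and 176 CPM at day 7 and at 534.0, 278.0 and 471 CPM at day 14. Replicate 2 of day 14 lay within the range of 2D, whereas all samples of day 14 lay above those of day 7. CCL3 was 2.33-fold higher at day 14 than at day 7 (log2 fold change 1.22, SE 0.215, adjusted p = 0.00185 by edgeR) and 1.63-fold higher than in 2D (0.71, SE 0.213, adjusted p = 0.0206 by edgeR). The second call was lost without replicate 2 (0.64) or 3 (0.60) of 2D and without replicate 1 (0.52) or 3 (0.64) of day 14, with total counts as the scaling (0.51), and when only the 6 samples compared were fitted (0.69). Its log2 fold change from 2D to day 7 was -0.52 (SE 0.213, adjusted p = 0.0659 by edgeR), a difference that 6 alternative fits called, among them those without replicate 1 (-0.53) or 2 (-0.52) of day 14.

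The transcripts of CCL4, CCL3, CCL18 and CCL5 are short, with 667, 780, 1324 and 1499 exonic bases, and changes differed with length over all genes. Among the 3366 tested genes with the shortest exonic length, up to 2086 bases, the median log2 fold change was -0.19 at day 7, 0.12 at day 14, and 0.32 between the time points. With this trend removed from each library, an alternative added after seeing the data, the rise between the time points was 0.68 for CCL3 (adjusted p = 0.00642 by edgeR), 0.70 for CCL4 (adjusted p = 0.00102) and 1.63 for CCL5 (adjusted p = 9.13e-05), smaller than without the correction but called for each. The direction of CCL4 at day 7 turned, from -0.14 to 0.38 (adjusted p = 0.0166 by edgeR), and the value of CCL3 there moved from -0.52 to -0.05 (adjusted p = 0.829). CCL22 has 2917 exonic bases, and its log2 fold changes of 3.53, 1.39 and -2.14 after the correction were within 0.02 of those before.

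CCL3 and CCL4 have near-identical copies close by, CCL3L1 and CCL4L2, and reads from identical stretches cannot be assigned with certainty. Of the 100-base windows of the CCL3 transcript, 0 of 681 were identical to its copy, against 45 of 561 (8.02%) for CCL4. Both copies fell at day 7 against 2D, CCL3L1 by 1.04 on the log2 scale (adjusted p = 0.00235 by edgeR) and CCL4L2 by 0.67 (adjusted p = 0.00439). Between the time points both rose, by 1.15 and by 1.62. CCL3 also shares 468 of its 780 exonic bases with AC243829.4, an antisense gene at 61.4 ± 8.95, 47.1 ± 7.235 and 70.8 ± 5.675 CPM (mean ± SD, n = 3), whose reads cannot be told apart from those of CCL3 unless strand was used in counting. Each count of CCL3 was matched by 1.27 to 1.41 counts of CCL4 in 2D, 1.56 to 1.88 at day 7 and 1.62 to 2.12 at day 14, so that every sample of 3D had relatively more CCL4 than any of 2D.

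CXCL10, an interferon-induced chemokine that attracts activated T cells through CXCR3, was low in every sample and lowest at day 14. The gene (chr4:76021118-76023497, minus strand) had 105, 163 and 74 counts in 2D, 80, 86 and 42 counts at day 7 and 0, 12 and 29 counts at day 14. In CPM these were 1.73, 1.755 and 0.9705 in 2D, 1.38, 1.57 and 0.796 at day 7, and 0, 0.228 and 0.520 at day 14. A count of 0 allows a level of up to 3 counts, or 0.0554 CPM in that sample, as far as counting error goes. The samples of day 14 lay below all others, while those of 2D and day 7 overlapped. CXCL10 passed the expression filter only through samples of 2D and day 7, so that a fall at day 14 was favoured. At day 14 the log2 fold change was -2.56 against 2D (SE 0.782, adjusted p = 0.0222 by edgeR) and -2.31 against day 7 (SE 0.783, adjusted p = 0.0432 by edgeR), whereas at day 7 it was -0.25 (95% interval -1.78 to 1.28, adjusted p = 0.801). The call against 2D was lost without replicate 1 (-2.47) or 2 (-2.45) of 2D or replicate 2 of day 14 (-2.49). The call against day 7 was lost without replicate 1, 2 or 3 of 2D (-2.29 each), replicate 1 (-2.23), 2 (-2.10) or 3 (-2.53) of day 7 or replicate 2 of day 14 (-2.24), with total counts, with edgeR's filterByExpr, and with the replicate number as a block.

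CXCL16 is made as a membrane-bound chemokine that can be shed by the protease ADAM10. The gene (chr17:4733533-4739928, minus strand) was at 2.29, 1.9 and 1.6 CPM in 2D, at 0.742, 1.44 and 1.21 CPM at day 7 and at 5.14, 1.75 and 4.29 CPM at day 14. All samples of day 7 lay below those of 2D, and replicate 2 of day 14 lay within the range of 2D. Between the time points CXCL16 rose 3.29-fold (log2 fold change 1.72, SE 0.431, adjusted p = 0.0115 by edgeR). Compared with 2D, the difference was -0.77 at day 7 (95% interval -1.69 to 0.15, adjusted p = 0.162 by edgeR) and 0.95 at day 14 (95% interval 0.05 to 1.86, adjusted p = 0.0926), and the latter was called without replicate 2 of day 14 (1.29, adjusted p = 0.0165). CXCL16 shares 7.05% of its exonic bases with MED11 and ZMYND15. ADAM10, ADAM17 and DPP4, proteases that shed or clip chemokines, were all tested, and 0 of these 3 were called by edgeR in any comparison, with no unadjusted p-value under 0.05.

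**Figure D2:**
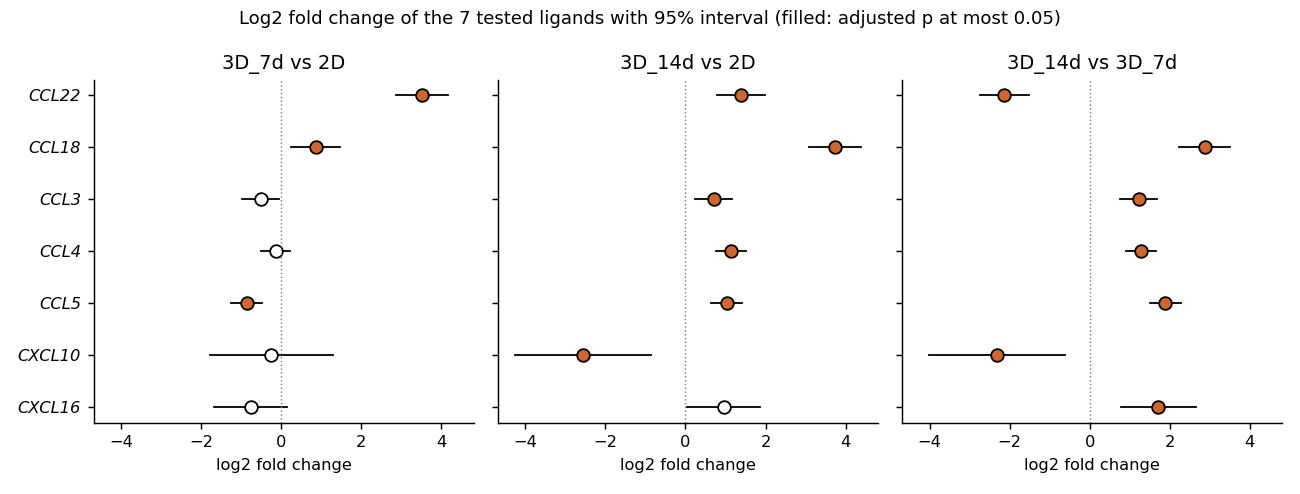
Log2 fold change (x axis) of the 7 tested ligand genes (y axis) in the 3 comparisons, with bars for the 95% interval and filled points for an adjusted p of at most 0.05. CCL22 and CXCL10 lie to the left of 0 for day 14 against day 7, at -2.14 and -2.31, and the other 5 genes lie to the right.

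At day 7, 3 of the 7 tested ligand genes were called against 2D, CCL22 and CCL18 higher and CCL5 lower, while 43.4% of all tested genes were called in this comparison (22.2% higher and 21.2% lower). This share of ligands, 42.9%, was near that of all genes. At day 14, 6 of the 7 were called, 5 of them higher and CXCL10 lower, against 36.2% of all genes (19.0% higher and 17.2% lower). Between the time points all 7 were called (6 in most alternatives, without CXCL10), CCL18, CCL3, CCL4, CCL5 and CXCL16 higher and CCL22 and CXCL10 lower at day 14, against 28.1% of all genes (14.5% higher and 13.6% lower). Their median log2 fold changes were -0.25, 1.03 and 1.28, beside medians close to 0 for all tested genes. The groups did not overlap for 5, 5 and 7 of the 7 genes in these comparisons, against 64.6%, 49.7% and 39.3% of all tested genes. The comparisons with 2D share the 2D samples and those with day 7 share the samples of day 7.

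Per length, CCL4 and CCL3 led in each group, CCL22 and CCL5 exchanged the next places at day 7, and the 3 lowest genes changed their order between groups. In 2D the levels were 525 ± 48.7 RPKM for CCL4, 336 ± 45.4 for CCL3, 83.5 ± 15.0 for CCL5, 18.9 ± 2.75 for CCL22 and 1.83 ± 0.133 for CCL18 (mean ± SD, n = 3), with no overlap between neighbours in this order. At day 7 CCL4 (477 ± 8.46 RPKM) was followed by CCL3 (235 ± 27.3) and CCL22 (216 ± 58.2), which overlapped, and then by CCL5 (45.8 ± 8.29) and CCL18 (3.31 ± 1.16). At day 14 the order of these 5 was again that of 2D, with 1154 ± 275 RPKM for CCL4, 548 ± 171 for CCL3, 170.0 ± 15.55 for CCL5, 49.25 ± 19.0 for CCL22 and 24.25 ± 7.53 for CCL18, of which CCL22 and CCL18 overlapped. CXCL10, CXCL16 and CCL17 stayed at or below 2.12 RPKM in every sample, and in 2D CXCL16 overlapped with both of its neighbours, CXCL10 and CCL17. CXCL10 was the highest of these 3 in 2D (1.26 ± 0.379 RPKM) and the lowest at day 14 (0.212 ± 0.222), where it did not overlap with CCL17.

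**Figure D3:**
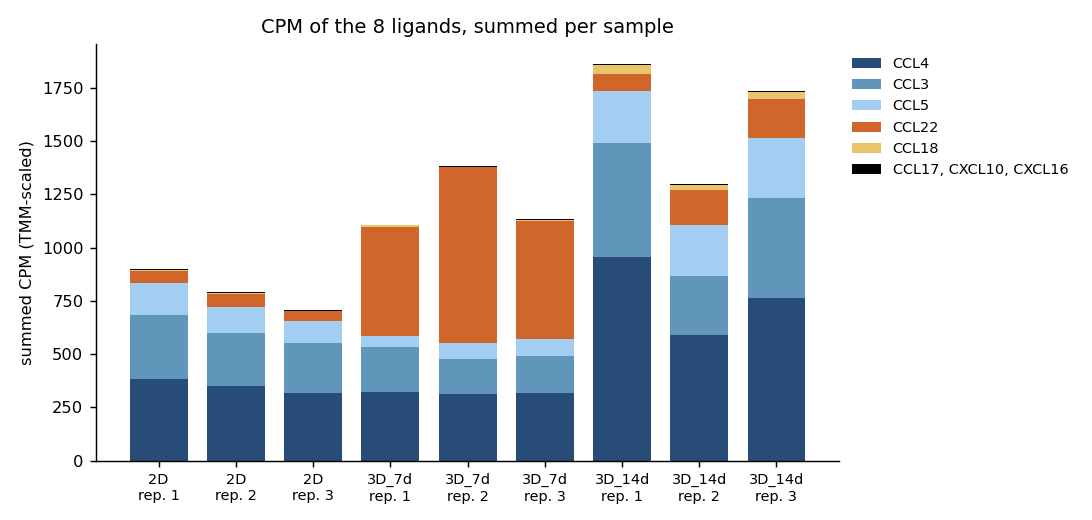
Summed CPM of the 8 ligand genes in each of the 9 samples, stacked by gene (y axis in CPM, bars starting at 0). The orange segment of CCL22 takes 46.3 to 59.7% of the sum in the samples of day 7 and at most 12.8% in the others.

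Together the 8 genes summed to 706.5 to 899 CPM in 2D, 1108 to 1384 CPM at day 7 and 1299 to 1864 CPM at day 14. CCL22 made up 6.505 to 7.59% of this sum in 2D, 46.3 to 59.7% at day 7 and 4.32 to 12.8% at day 14. CCL4 made up 42.5 to 44.9% in 2D, 22.6 to 29.25% at day 7 and 44.1 to 51.3% at day 14, and CCL5 made up 14.7 to 16.5%, 4.95 to 6.97% and 13.1 to 18.35%. CCL22 was thus the largest single share of the CPM in each sample of day 7 and CCL4 in each of the other 6. These shares are not divided by length, and per length CCL4 stood above CCL22 at day 7 too (477 against 216 RPKM on average).

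Most other chemokine ligands were barely detected. Of 36 further ligand genes, 4 were tested, CCL20, CCL28, XCL1 and XCL2, and 16 had at most 3 counts in every sample. All 4 fell at day 7 against 2D, a comparison in which 21.2% of all tested genes were called lower. CCL20 passed the expression filter only with the help of its samples of 2D, so that a fall from there was favoured. XCL1, or lymphotactin, fell from 26.6 ± 4.75 to 6.295 ± 1.65 CPM (log2 fold change -2.08, SE 0.249, adjusted p = 5.55e-05 by edgeR), and CCL28, a mucosal chemokine, fell from 20.6 ± 2.14 to 6.70 ± 0.929 CPM (-1.62, SE 0.227, adjusted p = 0.000153 by edgeR). Both were still lower than 2D at day 14, at 9.38 ± 2.11 and 9.87 ± 2.83 CPM. CCL20, the ligand of CCR6, was at 1.125 ± 0.139 CPM in 2D, 0.0763 ± 0.0707 CPM at day 7 and 0.872 ± 0.428 CPM at day 14, and it fell by 3.82 on the log2 scale and then rose by 3.46 (adjusted p = 0.000716 and 0.0032 by edgeR). XCL2 fell by 1.56 at day 7 (adjusted p = 0.042 by edgeR). CXCL9 and CXCL11, the other ligands of CXCR3, had at most 51 and 5 counts in a sample.

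CXCR3 was the most abundant of the receptors of these ligands that are described here. CXCR3, the receptor of CXCL10, rose from 47.1 ± 5.49 CPM in 2D to 190 ± 23.7 at day 7 (log2 fold change 2.01, SE 0.165, adjusted p = 5.55e-06 by edgeR) and was at 181 ± 28.0 CPM at day 14. CCR1, which binds CCL3 and CCL5, rose from 0.415 ± 0.105 to 1.34 ± 0.564 CPM at day 7 (1.69, SE 0.496, adjusted p = 0.015 by edgeR) and was at 1.12 ± 0.488 CPM at day 14 (1.43 against 2D, adjusted p = 0.0379). CCR1 passed the expression filter only through samples of 3D, so that a rise from 2D was favoured. The receptors of CCL22 and CCL17 were not tested, since CCR4 had 0, 7 and 0 counts in 2D, 23, 22 and 0 at day 7 and 1, 15 and 1 at day 14. Others that did not pass the filter were CCR8 (0 to 18 counts), CXCR6, the receptor of CXCL16 (0 to 75 counts), and CCR3 (0 to 3 counts).

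Receptors of other chemokines changed in both directions. Of 16 genes, 6 were tested. CCR7, which guides lymphocytes into lymph nodes, averaged 330 ± 25.2, 814 ± 301 and 430 ± 97.4 CPM in 2D, 3D_7d and 3D_14d. Like CCL22, it rose at day 7 (log2 fold change 1.30, adjusted p = 0.00138 by edgeR) and fell by day 14 (-0.92, adjusted p = 0.0169 by edgeR). Unlike CCL22, its samples of the 2 time points overlapped, and at day 14 it was not called against 2D (0.38, adjusted p = 0.252 by edgeR). CCR10, a receptor of CCL28, rose at both time points (0.97 and 1.33). CXCR4, the receptor of CXCL12, fell from 26.3 ± 1.65 to 11.2 ± 1.65 CPM at day 7 (-1.23, adjusted p = 0.000339 by edgeR) and ACKR3, the decoy receptor of CXCL12, from 94.1 ± 2.93 to 13.2 ± 1.28 CPM (-2.83, adjusted p = 1.1e-05 by edgeR), and both were lower than 2D at day 14 (-1.19 and -2.01). CCR6 and CCRL2 were not called in any comparison.

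Genes of the pathways that are known to induce these ligands were counted from lists. Of 9 genes of NF-kB subunits and feedback, 2 rose and 2 fell at day 7, 2 rose and 1 fell at day 14, and 1 rose and 1 fell between the time points. These are 44.4%, 33.3% and 22.2% of the list, near or below the 43.4%, 36.2% and 28.1% of all tested genes. NFKBIA, the inhibitor that NF-kB itself induces, rose from 509 ± 33.3 to 775 ± 24.9 CPM at day 7 (log2 fold change 0.61, adjusted p = 0.00251 by edgeR), while the subunit REL fell from 30.3 ± 3.06 to 12.7 ± 3.79 CPM (-1.26, adjusted p = 0.000857 by edgeR). BCL3, a coactivator, was at 13.5 ± 6.21, 12.3 ± 4.99 and 36.2 ± 16.6 CPM and rose late (1.56 between the time points, adjusted p = 0.0128 by edgeR), and NFKB2 rose at day 7 (0.37, adjusted p = 0.0475 by edgeR) and fell thereafter (-0.50, adjusted p = 0.0186).

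Of 9 tested genes of the axis of IL4 and STAT6, which induces CCL17 and CCL22 in several cell types, 5 rose and 0 fell at day 7 and likewise at day 14, and 2 rose and 1 fell between the time points. These are 55.6%, 55.6% and 33.3% of the list, against 43.4%, 36.2% and 28.1% of all tested genes in either direction. Called higher were 22.2%, 19.0% and 14.5% of all tested genes. The median log2 fold changes of the list were 0.50, 0.66 and 0.09. At day 7 the genes called were STAT6 itself (0.92, adjusted p = 0.000695 by edgeR), the kinases JAK1 (1.44, adjusted p = 6.02e-05) and JAK3, the receptor chain IL2RG and the transcription factor IRF4. IRF4 averaged 385 ± 35.5, 806 ± 149 and 392 ± 85.0 CPM in 2D, 3D_7d and 3D_14d, and was thus the member of the list that fell between the time points (-1.04, SE 0.188, adjusted p = 0.00213 by edgeR). FCER2 (CD23) and SOCS1, induced by IL4, rose between the time points, by 0.60 and 0.68, where CCL22 fell. At day 7, where CCL22 was highest, these 2 were not called against 2D (0.07 and 0.05). IL4R (-0.30) and CISH (-0.50) were the others of the 4 genes not called there. The part of this axis in the course of CCL22 was not tested.

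At day 14 CXCL10 was called lower than in 2D, and no gene of a list of interferon factors and targets was. Of 11 tested interferon factors and targets, 3 rose at day 7, 8 at day 14 and 4 between the time points, and 0 fell. These are 27.3%, 72.7% and 36.4% of the list, against 43.4%, 36.2% and 28.1% of all tested genes in either direction. Called higher were 22.2%, 19.0% and 14.5% of all tested genes. IFIT1, an interferon-induced RNA-binding protein, rose from 24.1 ± 0.680 CPM in 2D to 115.5 ± 7.685 at day 14 (log2 fold change 2.26, SE 0.350, adjusted p = 0.000427 by edgeR), and IRF7 rose from 283 ± 17.6 to 590.2 ± 46.7 CPM (1.06, adjusted p = 0.000712 by edgeR). MX1 was higher at both time points, with log2 fold changes of 0.96 at day 7 and 1.13 at day 14. None of these genes was called lower at day 14, the group in which CXCL10 had 0, 12 and 29 counts. At day 7 CXCL10 was not called against 2D (-0.25, adjusted p = 0.801 by edgeR). Its call at day 14 against 2D was lost in 3 of the 9 fits without 1 sample, and a fall there was favoured by the expression filter.

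The rise of CCL22 was set beside the genes around it on chromosome 16. Within 500000 bases of its start, 45 other genes are annotated and 17 of them were tested. At day 7, 7 rose and 1 fell against 2D, at day 14, 4 rose and 1 fell, and between the time points 2 rose and 3 fell. Over all tested genes the shares called in either direction were 43.4%, 36.2% and 28.1%, near the 8, 5 and 5 of 17 neighbours. By direction, 22.2% of all tested genes were higher and 21.2% lower at day 7. The 7 of 17 neighbours that rose there lay above that share, and the 1 that fell lay below it. At day 14 the shares of all tested genes were 19.0% higher and 17.2% lower, and between the time points 14.5% and 13.6%. Their median log2 fold changes were 0.35, 0.18 and -0.22. ADGRG5, an adhesion receptor 183860 bases downstream, was at 10.5, 13.4 and 11.5 CPM in 2D, 31.65, 47.9 and 45.35 CPM at day 7 and 11.0, 28.2 and 17.2 CPM at day 14, rising by 1.82 (adjusted p = 0.000393 by edgeR) and falling by 1.15 (adjusted p = 0.0111). CIAPIN1, an inhibitor of apoptosis, rose by 1.36 at day 7 and 0.97 at day 14. CETP, which transfers cholesteryl esters, fell by 2.41 and 1.69. No neighbour reached the 3.51 of CCL22 at day 7, and CX3CL1, the chemokine gene between CCL22 and CCL17, had at most 43 counts in a sample.

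**Figure D4:**
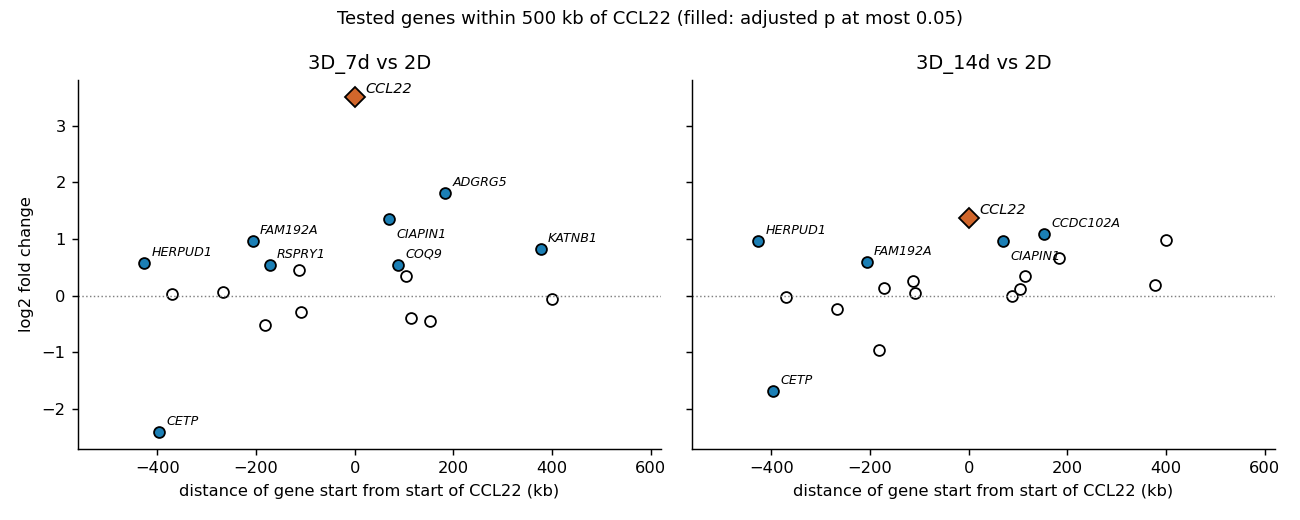
Log2 fold change (y axis) of the 17 tested genes around CCL22 and of CCL22 itself (diamond) at day 7 and day 14 against 2D, by the distance of the lower coordinate of each gene from that of CCL22 in kilobases (x axis), with filled points for an adjusted p of at most 0.05. CCL22 stands above all its neighbours in both panels, by 3.51 against at most 1.82 at day 7 and by 1.38 against at most 1.09 at day 14.

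Genes with the course most like that of each ligand were taken as those with the smallest root mean square difference of centred log2 CPM over the 9 samples. For CCL22 these were PIGW (0.50), AL390755.2 (0.52), ARSB (0.57), AC008074.2 (0.61) and GPR55 (0.61), where the median over all 13462 other tested genes was 1.54. PIGW, an enzyme of the synthesis of GPI anchors, was at 9.41, 52.4 and 16.8 CPM on average in 2D, at day 7 and at day 14, and ARSB, a lysosomal sulfatase, at 4.46, 22.5 and 10.4 CPM. For CCL18 they were IGHV1-68, LINC01781, AC245369.1, MNDA and SLC35D2 (0.32 to 0.50, median over all genes 1.67), of which MNDA, a nuclear antigen of myeloid cells and some B cells, was at 2.87, 6.39 and 24.5 CPM.

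For CCL4 they were CORO1B, MGST3, CD63, TRAPPC1 and RNASEK (0.08 to 0.15, median 0.73), and for CCL3 they were MAP3K2-DT, PIK3CD-AS2, NDUFC1, CHCHD5 and FAAP20 (0.10 to 0.15, median 0.70). CD63, a tetraspanin of lysosomes and exosomes, was at 319, 317 and 716 CPM, beside 350, 318 and 770 CPM for CCL4. For CCL5 they were KLK1, TNFSF12, YPEL3, AC133552.5 and CCL4L2 (0.20 to 0.26, median 0.92), and CCL4L2 was thus the only gene of a chemokine among all those named for the 7 ligands. The genes named for CXCL10 were PRDM13, SPAG8, ERCC6L, TET1 and KIF24 (0.51 to 0.62, median 1.81), and those for CXCL16 were LINC01578, BRI3, EMP3, NDUFA1 and COMMD6 (0.23 to 0.28, median 0.92). A small difference describes likeness over 9 samples that share libraries and says nothing of shared control.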

How the data were processed

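RNA of MEC1 cells was measured in 9 samples, 3 per group, and grouped by the culture method and time in the labels. The authors prepared libraries from a low RNA input with the SMART-Seq v4 protocol and sequenced single reads, which were trimmed with Trimmomatic (version 0.39), aligned to GRCh38 with STAR (version 2.5.3a) and assigned to genes with featureCounts (version 1.6.4). The strand setting and the treatment of reads with several alignments are not given in the sources used here. The deposited values are raw counts per gene symbol, without normalization. Replicates of well-detected genes differed by more than counting error. Intervals and floors for counts of 0 cover counting error only, since the reads carry no molecular identifiers.

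In R (version 4.3.3), edgeR (version 4.0.16) was used for TMM factors and the quasi-likelihood test, with the expression filter and threshold stated in the results. Log2 values for profiles used a prior count of 2. Alternatives were the Wald test of DESeq2 (version 1.42.0), DESeq2's size factors, total counts alone, filterByExpr, no filter, the 6 samples of a comparison, the replicate number as a block and 9 fits without 1 sample. A fit with a loess trend over gene length (span 0.4) as an offset was added after seeing the data. The scripts were tested on simulated counts.

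The 8 ligand genes and all gene lists were chosen with earlier results of these data known. Named were all 8 ligand genes, receptors of theirs, up to 4 genes with the smallest p-values of each list, the 5 nearest profiles of each tested ligand, and the neighbours of CCL22, summarised by counts. The neighbours described by name, and the list members named beyond these, were chosen after their values were seen. Some genes of the lists are not reported here by name. Exonic overlaps were computed from the exon coordinates in the deposited table, and windows shared with gene copies from the transcripts of GENCODE release 44, in which the locus counted as CCL3L1 is called CCL3L3.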

Additional observations from a re-analysis of the deposited data

Results flagged for a closer look

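All 7 tested ligand genes differed between the time points of 3D culture, in a direct test of day 14 against day 7 with edgeR, so that their differences from 2D were not the same at the 2 time points. The values for day 14 against day 7, on the log2 scale, were 2.87 for CCL18, 1.89 for CCL5, 1.72 for CXCL16, 1.28 for CCL4 and 1.22 for CCL3, which were higher at day 14 in each of 3 samples than in any of 3 samples of day 7. For CCL22 the value was -2.14 and for CXCL10 it was -2.31, with each of 3 samples of day 14 below those of day 7. The call of CXCL10 (adjusted p = 0.0432 by edgeR) was lost in 7 of the 9 fits without 1 sample, whereas those of the other 6 genes held in each alternative run. CXCL10 also passed the expression filter only through samples of 2D and day 7, which favoured a fall. Of all tested genes, 28.1% were called in this comparison.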

How the results depend on the processing

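The calls of CCL22 and CCL5 in all 3 comparisons, of CCL18 and CCL4 at day 14 against 2D and against day 7, and of CCL3 and CXCL16 between the time points kept their direction and stayed past the threshold in each alternative run. With the length trend removed, CCL4 at day 7 turned to 0.38 and CXCL10 at day 7 to 0.067 (adjusted p = 0.950). With total counts alone, CCL18 at day 7 (0.71, adjusted p = 0.0609), CCL3 at day 14 against 2D (0.51, adjusted p = 0.0825) and CXCL10 between the time points (-2.31, adjusted p = 0.0567) were no longer called, and CCL3 at day 7 was called (-0.67, adjusted p = 0.0254). That scaling moved the median of all genes to -0.16 at day 7 and -0.18 at day 14 and the calls from 2985 higher and 2853 lower to 2157 and 3575 at day 7, and from 2557 and 2318 to 1604 and 3246 at day 14. CCL3 at day 7 was also called by DESeq2 (-0.53, adjusted p = 0.0394) and with only the 6 samples (-0.53, adjusted p = 0.00203), with which CCL3 at day 14 against 2D was lost (0.69, adjusted p = 0.0543) and CXCL10 between the time points was not tested. filterByExpr ended the call of CXCL10 between the time points (-2.33, adjusted p = 0.0622).

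Over the 9 fits without 1 sample, the values that changed their call ranged from 0.56 to 1.06 for CCL18 at day 7, -0.64 to -0.44 for CCL3 at day 7, 0.52 to 0.94 for CCL3 at day 14, -3.69 to -1.97 for CXCL10 at day 14, 0.66 to 1.29 for CXCL16 at day 14, each against 2D, and -3.44 to -1.71 for CXCL10 between the time points. The cause of these changes was not tested. The counts of ligand genes called ranged from 2 to 4, 4 to 6 and 6 to 7 in these fits. Of all genes, 1599 and 1564 were higher at day 14 without replicate 2 or 3 of 2D, 1193 higher and 1098 lower between the time points without replicate 2 of day 7, 1092 lower without its replicate 3, and 1122 lower with only the 6 samples, where the full fit gave 2557, 1951 and 1834.

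The labels give the groups the same replicate numbers, but the deviations of samples with the same number correlated by -0.10 to 0.19 and 0 of 9 samples lay closest to their own number in both other groups, so that the samples were not treated as pairs. With the replicate block, CCL3 at day 7 was called (-0.52, adjusted p = 0.0301), CXCL10 between the time points was not (-2.40, adjusted p = 0.0614), and the calls of all genes were 2939 higher and 2821 lower, 2458 and 2361, and 1818 and 1865 in the 3 comparisons.

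Counts were lowest for CXCL10, CXCL16 and CCL17, with at most 163, 278 and 51 in a sample, and the part of depth in their standard errors was not tested.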
